A study of Arabidopsis thaliana with 32 samples.

Results

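The 10 genes described here carry the jasmonate signal from its receptor to its output in Arabidopsis thaliana leaves. They are COI1 (AT2G39940), MYC2 (AT1G32640), MYC3 (AT5G46760), MYC4 (AT4G17880), VSP1 (AT5G24780), VSP2 (AT5G24770), TAT3 (AT2G24850), CORI3 (AT4G23600), CYP94B3 (AT3G48520) and CYP94C1 (AT2G27690). They were taken by these locus identifiers out of the 21525 genes listed in the table of normalized counts, and all 10 were among the 21469 genes tested. The samples were seventh leaves of wild-type Col-0 plants, 32 in all, in 8 groups of 4 biological replicates. For 3 h the plants were given growth light (GL) or a treatment that inhibits photosystem I (PSI-PI), at a CO2 level of 0, 100, 400 or 1000 ppm. GL was steady at 100 µmol photons per square metre and second. In PSI-PI weak red light at 35 of these units alternated with short saturating white pulses at 1000, and a spell of growth light followed every series of pulses. All groups shared the same genotype and growth conditions, no mutant and no jasmonate treatment was among the samples, and each sample was a whole leaf, so that fewer cells of a type and less RNA per cell cannot be told apart.

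Jasmonate is made from fatty acids, and its active form is a conjugate with isoleucine. COI1 is the F-box protein that binds this conjugate together with a JAZ repressor and marks the repressor for degradation. MYC2, MYC3 and MYC4 are the basic helix-loop-helix factors that JAZ proteins hold back, and they switch on wound and defence genes once released. VSP1 and VSP2 encode vegetative storage proteins of the acid phosphatase family, TAT3 a tyrosine aminotransferase, and CORI3 a cystine lyase, and all 4 are standard readouts of a jasmonate response in leaves. CYP94B3 and CYP94C1 are cytochrome P450 enzymes that oxidise the active hormone and so end the signal, and both are themselves induced by jasmonate.

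MYC factors bind the G-box, spelled CACGTG, and its relatives. The 250 bases before the annotated start of each gene were searched for it, for the relative CACATG and for the relative AACGTG, on both strands, in the RefSeq annotation of TAIR10.1. None of the 10 windows held CACGTG, which was present in 6.49% of the 27437 windows of protein-coding genes. CACATG was found in 11.1% of all windows and AACGTG in 7.54%, and 22.8% held at least 1 of the 3. Among the 10 genes 4 held 1 of them, namely MYC2, VSP1, TAT3 and CYP94C1, and the stretches that hold the match are shown because these genes include both members called at 2-fold or more at 0 ppm CO2. They read 5′ to 3′ on the strand of the gene, with the motif in capitals.
MYC2, chr1:11801497-11801542, minus strand: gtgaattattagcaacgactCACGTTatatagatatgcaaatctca
VSP1, chr5:8509346-8509391, minus strand: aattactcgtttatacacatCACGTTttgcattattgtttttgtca
TAT3, chr2:10585302-10585347, minus strand: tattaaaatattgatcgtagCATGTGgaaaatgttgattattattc
CYP94C1, chr2:11809106-11809241, plus strand: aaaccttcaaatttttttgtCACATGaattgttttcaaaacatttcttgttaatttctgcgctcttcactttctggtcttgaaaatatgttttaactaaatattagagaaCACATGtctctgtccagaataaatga
In MYC2 and VSP1 the capitals are AACGTG read from the opposite strand, in TAT3 they are CACATG read from the opposite strand, and CYP94C1 carried CACATG at both ends of the stretch. The match began 115 bases before the start in MYC2, 170 in VSP1 and 111 in TAT3, and in CYP94C1 the matches began 153 and 63 bases before it. A match is a description of the letters and not a bound site, and COI1, MYC3, MYC4, VSP2, CORI3 and CYP94B3 held none of the 3 motifs in this window.

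In TAIR10.1 COI1 is at chr2:16672493-16675864 and has 3 exons. MYC2 at chr1:11798119-11801407, MYC3 at chr5:18974022-18976590 and MYC4 at chr4:9933326-9935685 have 1 exon each. TAT3 is at chr2:10582074-10585216 with 7 exons and CORI3 at chr4:12310379-12313212 with 6 or 7 by transcript. CYP94B3 at chr3:17974853-17976774 and CYP94C1 at chr2:11809279-11811280 have 1 exon each. VSP1 (chr5:8507590-8509201) and VSP2 (chr5:8500468-8502224) stand near each other on chromosome 5, and 90.4% of the 795 aligned bases of their coding sequences were identical, with a longest shared run of 54 bases. The MYC genes were less alike, at 79.0% for MYC3 and MYC4, 70.5% for MYC2 and MYC3 and 69.3% for MYC2 and MYC4. How reads that match both VSP1 and VSP2 were shared is not visible in the table, so the split between these 2 genes is uncertain.

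Values are normalized counts, divided by the authors by a size factor for each leaf and apparently by a transcript length factor. Their totals ranged from 18494378 to 31211055 a leaf. The 4 leaf markers were at 11911 or more in every leaf, while of the 4 root and flower markers listed AG and AP3 were never above 38.1, BGLU22 was at 0 in 28 leaves, and PYK10 reached 1303 in 1 leaf. Replicate 1 of 0 ppm PSI-PI stood apart from its group, with 2448 genes differing at least 2-fold from all 3 other leaves, against a median of 443 over the 32 leaves. In 0 ppm GL replicate 2 had 1073 such genes and replicate 1 had 1032. Both this leaf and replicate 2 of 0 ppm GL were far above their groups in several of the 10 genes, and the 0 ppm values of these genes against 400 ppm are given with and without both leaves.

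Few of the 10 genes passed the test in any comparison. A gene was called where limma gave a Benjamini-Hochberg adjusted p below 0.05 over all tested genes and the change was at least 2-fold, that is 1 on the log2 scale. In GL at 0 ppm against 400 ppm, 1 of 10 was called, MYC2, which rose, where 10.2% of all tested genes were called. On the adjusted p alone 3 of 10 passed, COI1, MYC2 and MYC3, against 33.8% of all genes. In PSI-PI at 0 ppm against 400 ppm, 1 of 10 was called, CYP94C1, which rose, against 4.68% of all genes, and 2 of 10 passed on the adjusted p alone, CYP94C1 and MYC4, against 21.0%. These counts stood near the shares of all genes. The median log2 fold change of the 10 was 0.45 in GL beside 0.0034 for all genes, and 1.11 in PSI-PI beside 0.

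The other CO2 comparisons called 0 of 10 by limma. At 100 ppm against 400 ppm in GL, 8.15% of all genes were called and 34.4% passed on the adjusted p alone, while 0 of the 10 passed either rule and 2 had an unadjusted p below 0.05. In PSI-PI the same comparison gave 4.64% and 22.7% of all genes, with 0 of the 10 by either rule and 0 at an unadjusted p below 0.05. The log2 fold changes of the 10 there ran from -0.36 for TAT3 to 0.63 for CYP94C1. At 1000 ppm few genes responded at all, 0.233% and 0.377% in GL and 0.461% and 1.68% in PSI-PI, and 0 of the 10 passed in either light, with 3 at an unadjusted p below 0.05 in each. The share of all genes at an unadjusted p below 0.05 was not computed, so the counts at that limit cannot be read as particular to the 10 genes.

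The light treatment called 0 of 10 at every CO2 level by limma, although COI1 and MYC4 passed on the adjusted p alone at 3 of the 4 levels. At 0 ppm 1.34% of all genes were called and 7.05% passed on the adjusted p alone, and 0 of the 10 did, with 1 at an unadjusted p below 0.05. On the adjusted p alone 2 of 10 passed at 100 ppm (9.77% of all genes, 2.06% called), 2 at 400 ppm (24.8%, 6.19% called) and 2 at 1000 ppm (10.5%, 2.62% called), and these were COI1 and MYC4 at each level. At an unadjusted p below 0.05 there were 3, 3 and 5 of the 10. The share of all genes at that limit was not computed for any comparison. Here it was at least the 9.77%, 24.8% and 10.5% that passed the adjusted p, so these counts cannot be read as particular to the 10 genes. The interaction, which asks whether the light effect at another CO2 level differed from that at 400 ppm, passed for 1 of 10 at 0 ppm, MYC4, against 3.00% of all genes. At 100 ppm it passed for 0 of 10 (0.0466% of all genes) and at 1000 ppm for 0 of 10 (0%), with 0 and 3 at an unadjusted p below 0.05.

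**Figure D1:**
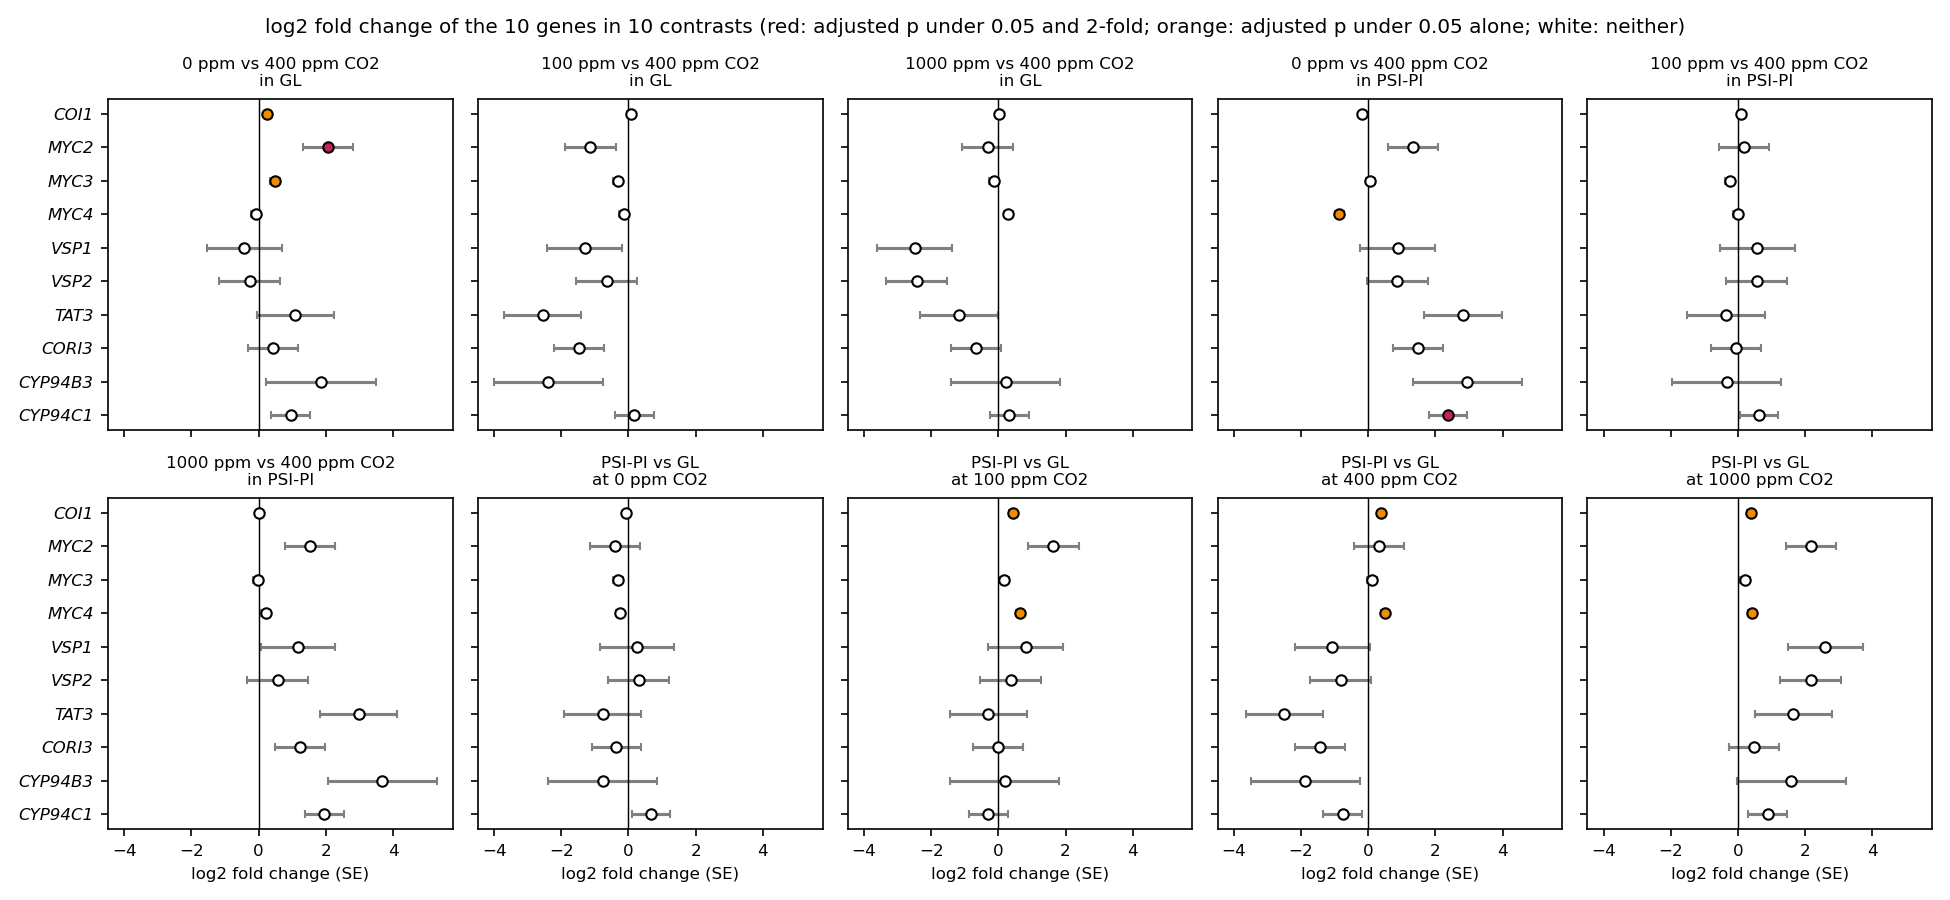
log2 fold change (x axis, with its SE) of each of the 10 genes (y axis) in the 10 comparisons of 2 groups, 4 leaves in each, from the limma fit. Filled points passed the adjusted p, red also at 2-fold or more (MYC2 and CYP94C1 at 0 ppm) and orange below 2-fold, and the bars of COI1, MYC3 and MYC4 are much shorter than those of the other 7 genes.

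COI1, the jasmonate receptor, was higher under PSI-PI than in GL wherever CO2 was present, and not at 0 ppm. At 400 ppm the 4 GL leaves had 569, 701, 708 and 655 normalized counts and the 4 PSI-PI leaves 875, 923, 838 and 804. At 100 ppm the GL leaves had 604, 694, 770.2 and 680.0 and the PSI-PI leaves 960.5, 905, 872 and 946. At 1000 ppm the GL leaves had 562, 659.8, 683 and 768 and the PSI-PI leaves 842, 882, 858 and 865. At each of these levels every PSI-PI leaf lay above every GL leaf. The log2 fold change was 0.43 ± 0.10 at 100 ppm (SE, n = 4 per group, limma adjusted p = 0.00483), 0.39 ± 0.10 at 400 ppm (adjusted p = 0.00336) and 0.38 ± 0.10 at 1000 ppm (adjusted p = 0.0103, and 0.0545 in a fit of the 8 leaves alone). Groups were likewise apart for 19.5%, 34.1% and 16% of all genes at these levels.

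At 0 ppm CO2 COI1 did not differ detectably between the lights. The GL leaves had 844, 774, 788 and 737 normalized counts and the PSI-PI leaves 629, 809, 770.4 and 817, and the groups overlapped, with a log2 fold change of -0.06 ± 0.10 (limma adjusted p = 0.760). The difference of this light effect from that at 400 ppm was -0.45 ± 0.14 on the log2 scale and missed the threshold (adjusted p = 0.0657). Within GL the leaves at 0 ppm all lay above those at 400 ppm, by 0.26 ± 0.10 (adjusted p = 0.0374), as 32% of all genes did in 1 direction or the other. That adjusted p rose to 0.0932, 0.0585 and 0.0666 without replicates 1, 2 or 3 of 0 ppm GL, to 0.153 and 0.0706 without replicates 1 or 4 of 400 ppm GL, and to 0.0693 in a fit of these 8 leaves alone. Ordered by group mean, COI1 ran from 658 at 400 ppm GL over 668 at 1000 ppm GL and 687 at 100 ppm GL, whose leaves overlapped, through 756 and 786 at 0 ppm PSI-PI and GL, to between 859.9 and 921 in the other PSI-PI groups.

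MYC2 was the only member called between CO2 levels in GL, and it was higher at 0 ppm. The 0 ppm GL leaves had 1263, 10234, 3567 and 4353 normalized counts, and the 400 ppm GL leaves 279, 1201, 1838 and 1054. Replicate 1 at 0 ppm lay among the 400 ppm leaves and the other 3 lay above all of them, so the groups overlapped. The log2 fold change was 2.07 ± 0.75 (SE, n = 4 per group, limma adjusted p = 0.0339). The call did not hold in several fits with 1 leaf fewer. The log2 fold change fell most without 0 ppm GL replicate 2 or 400 ppm GL replicate 1, and stayed near 2.07 without the other leaves named here. The call was lost without 0 ppm GL replicate 2 (1.59, adjusted p = 0.134), replicate 3 (2.09, 0.0571) or replicate 4 (2.00, 0.0699). It was lost as well without 400 ppm GL replicate 1 (1.51, 0.146) or replicate 4 (2.14, 0.0546). It was also lost in a fit of the 8 leaves alone (0.0528), and without both high leaves at 0 ppm the adjusted p was 0.111.

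Other genes moved in the same comparison. The myrosinase genes TGG1 and TGG2, taken here as markers of myrosin cells, were both lower at 0 ppm GL. Their log2 fold changes were -2.42 ± 0.55 and -2.32 ± 0.62 (limma adjusted p = 0.00136 and 0.00503). Their summed normalized counts were 4782 to 16650 at 0 ppm GL and 38051 to 60236 at 400 ppm GL. Of the 4 leaf markers 2 were lower as well, and the sum over the 4 was 267827 to 431900 against 616926 to 722170. The 3 guard cell markers MYB60, KAT1 and FAMA summed to 476 to 575 against 659 to 733, with 0 called. The sums of the phloem markers overlapped. The root marker PYK10, at 3.21 to 63.1 in the other leaves of 0 ppm GL, was at 1303 in replicate 2, the leaf with the most MYC2. The part of these differences in the MYC2 result was not tested.

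In PSI-PI the 0 ppm leaves had 7478, 2337, 1868 and 1978 normalized counts of MYC2 and the 400 ppm leaves 1235, 2915, 449.6 and 992. Replicate 1 at 0 ppm was far above the rest and replicate 2 at 400 ppm lay within the 0 ppm range, and the log2 fold change of 1.33 ± 0.75 missed the threshold (limma adjusted p = 0.206), as did 0.87 without both high leaves (0.490). At 100 ppm the GL leaves had 83.7, 244, 1227 and 1110.1 and the PSI-PI leaves 1382, 1185, 1253 and 1295. The PSI-PI leaves were within 1.17-fold of each other while the GL leaves spanned 14.7-fold, the widest range of MYC2 in any group. At 1000 ppm the GL leaves had 317, 431, 861 and 2291 and the PSI-PI leaves 2782, 5243, 3980.3 and 1946. Only GL replicate 4 reached into the PSI-PI range, and the log2 fold change of 2.18 ± 0.75 stayed just outside the threshold (adjusted p = 0.0613), inside it without that leaf (2.73, adjusted p = 0.0267).

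**Figure D2:**
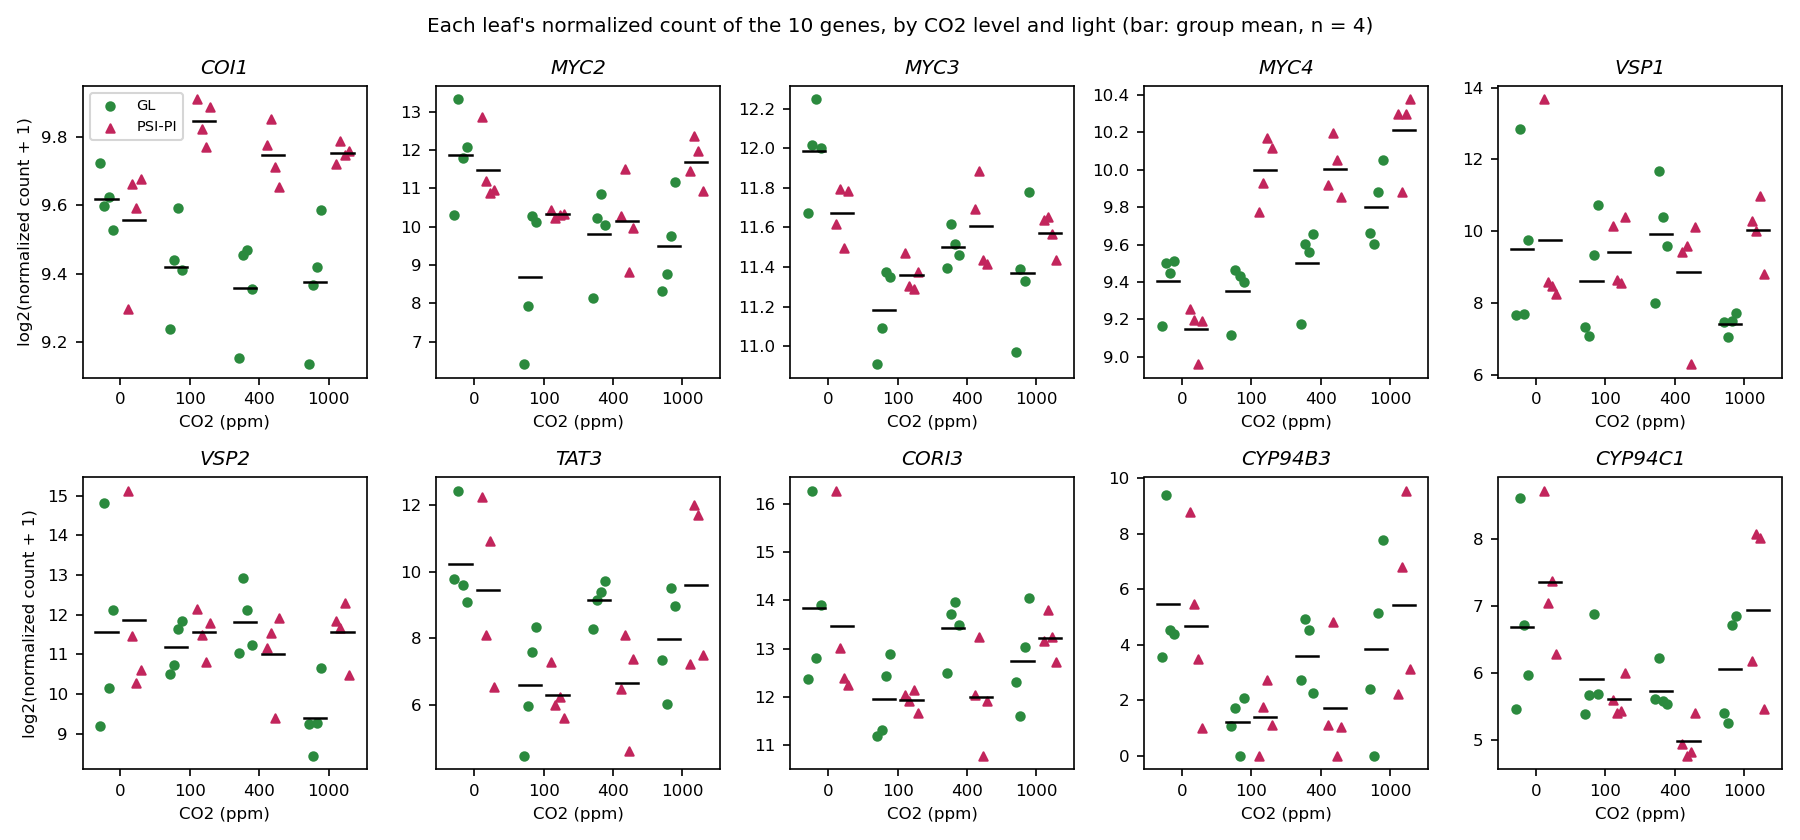
log2 of the normalized count plus 1 (y axis, scaled to each gene) of the 10 genes in each of the 32 leaves, by CO2 level (x axis) in GL (circles) and PSI-PI (triangles), with bars for the mean of 4 leaves. COI1 and MYC4 show the PSI-PI leaves above the GL leaves at 100 and 400 ppm and not at 0 ppm, while VSP1, VSP2, CORI3 and CYP94B3 show 1 leaf far above the others in each group at 0 ppm.

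MYC3, a close relative of MYC2, was higher at 0 ppm than at 400 ppm in GL. The 0 ppm GL leaves had 3263, 4148, 4862 and 4101 normalized counts and the 400 ppm GL leaves 2696, 3144, 2932 and 2814. All 4 leaves at 0 ppm lay above all 4 at 400 ppm, where 32% of all genes had groups apart. The log2 fold change was 0.49 ± 0.14 (SE, n = 4 per group, limma adjusted p = 0.00799), under the 2-fold minimum, and the adjusted p stayed below 0.05 in each of 17 alternatives, at most 0.0404. At 100 ppm the GL leaves had 1920.0, 2179, 2653 and 2605, every one below the 400 ppm leaves, where 40% of all genes had groups apart, with a log2 fold change of -0.32 ± 0.14 that missed the threshold (adjusted p = 0.0767) and passed it with quantile normalization (0.0249), in a fit of the 8 leaves alone (0.0495) and without 100 ppm GL replicate 3 (0.0497). In PSI-PI the group means ran from 2630.5 at 100 ppm to 3274 at 0 ppm, and no CO2 level differed from 400 ppm past the threshold. The light effect was -0.31, 0.18, 0.11 and 0.21 on the log2 scale at 0, 100, 400 and 1000 ppm and passed at none of them, the lowest adjusted p being 0.178 at 0 ppm.

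MYC4 was the only member whose interaction of light and CO2 passed the test. At 400 ppm the GL leaves had 577, 778, 755 and 805 normalized counts and the PSI-PI leaves 968, 1171, 1061 and 923. At 100 ppm the GL leaves had 555, 705, 689 and 675 and the PSI-PI leaves 874, 975, 1150.1 and 1106. In both pairs every PSI-PI leaf was above every GL leaf, where 34.1% and 19.5% of all genes had groups apart, with log2 fold changes of 0.51 ± 0.13 at 400 ppm (limma adjusted p = 0.00439) and 0.64 ± 0.13 at 100 ppm (adjusted p = 0.00205). At 1000 ppm the GL leaves had 808, 776, 940.0 and 1061 and the PSI-PI leaves 1258, 943, 1259 and 1328. There PSI-PI replicate 2 and GL replicate 4 overlapped, and the difference of 0.42 ± 0.13 (adjusted p = 0.0360) was lost in 8 of 16 alternatives, among them quantile normalization (0.108) and leaving out GL replicate 1, 2 or 3 or PSI-PI replicate 1, 3 or 4 (adjusted p = 0.0553 to 0.124).

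At 0 ppm the mean of MYC4 was lower in PSI-PI than in GL, without passing the test. The GL leaves had 573, 723, 698 and 729.6 normalized counts and the PSI-PI leaves 609, 586, 497 and 584, a log2 fold change of -0.26 ± 0.13 (limma adjusted p = 0.242). The light effect at 0 ppm was -0.76 ± 0.18 away from that at 400 ppm (SE, n = 4 per group, adjusted p = 0.0179), and this difference stayed past the threshold in all 25 alternatives (adjusted p at most 0.0486). Within PSI-PI MYC4 was lower at 0 ppm than at 400 ppm in every leaf, with a log2 fold change of -0.85 ± 0.13 (adjusted p = 9.13e-05), under the 2-fold minimum, where 16.3% of all genes had groups apart. Leaving out any 1 leaf kept that adjusted p at 0.000784 or below, and a fit of the 8 leaves alone gave 0.0168. In GL the same CO2 comparison gave -0.09 ± 0.13 (adjusted p = 0.614).

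VSP1 and VSP2, the classic jasmonate outputs, varied more between leaves of 1 group than between groups, and neither was called in any comparison. The 0 ppm GL leaves had 588, 28616, 1127 and 4449 normalized counts of VSP2 and 204, 7313, 207 and 862 of VSP1. The 0 ppm PSI-PI leaves had 35738, 2837, 1248 and 1554 of VSP2 and 13068, 382, 351 and 303 of VSP1. Replicate 2 in GL and replicate 1 in PSI-PI held the highest levels of both genes in the whole series, while their group mates lay within or below the range seen at 400 ppm. At 400 ppm the GL leaves had 2081, 7790.1, 4466 and 2398 of VSP2 and the PSI-PI leaves 2302, 2989, 674 and 3836. For VSP1 the 400 ppm leaves had 257, 3294, 1344 and 773 in GL and 689, 775, 77.4 and 1104 in PSI-PI. The log2 fold change of VSP2 at 0 ppm was -0.26 ± 0.91 in GL (limma adjusted p = 0.854) and 0.87 ± 0.91 in PSI-PI (0.525), and that of VSP1 -0.43 ± 1.11 (0.799) and 0.88 ± 1.11 (0.606). Without both high leaves at 0 ppm VSP2 was -1.34 in GL and -0.22 in PSI-PI and VSP1 -1.55 and -0.43, and still neither gene passed. The direction in both lights rested on single leaves, since in GL VSP1 was 0.16 and VSP2 0.11 without 400 ppm GL replicate 2.

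At 1000 ppm the VSP genes were low in GL and higher in PSI-PI. VSP1 had 175, 132, 179 and 209 normalized counts in the GL leaves and 1255, 1036, 2028 and 449 in the PSI-PI leaves. VSP2 had 604, 347, 612 and 1625 and 3678, 3238, 5030.2 and 1429.8. The VSP1 groups did not overlap, as in 16% of all genes, and those of VSP2 overlapped in GL replicate 4 and PSI-PI replicate 4. The log2 fold change was 2.60 ± 1.11 for VSP1 (limma adjusted p = 0.144) and 2.17 ± 0.91 for VSP2 (0.134). Both were past the threshold only in a fit of these 8 leaves alone (0.0150 and 0.0479). The SE of the main fit draws on all 8 groups. On the log2 scale the SD of VSP1 was 0.27 and 0.91 in GL and PSI-PI at 1000 ppm, and 2.43 and 2.63 at 0 ppm. For VSP2 it was 0.93 and 0.77 at 1000 ppm, and 2.48 and 2.23 at 0 ppm. The 1000 ppm GL leaves lay below all 400 ppm GL leaves in both genes, with log2 fold changes of -2.49 ± 1.11 (0.418) and -2.42 ± 0.91 (0.288), which did not pass, where 8.64% of all genes had groups apart. At 100 ppm VSP1 ran from 135 to 1682 in GL and from 375 to 1343 in PSI-PI, and VSP2 from 1459.8 to 3699 and from 1791 to 4521, with overlap throughout.

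TAT3 and CORI3 followed the same 2 leaves at 0 ppm. TAT3 was at 873, 5561, 769 and 545 normalized counts in the 0 ppm GL leaves and at 4903, 274, 1956 and 91.4 in the 0 ppm PSI-PI leaves. CORI3 was at 5283, 78884, 7128 and 15399 and 79163, 8197, 5347 and 4863. GL replicate 2 and PSI-PI replicate 1 were the highest of their groups for both genes, at almost equal CORI3. Against 400 ppm CORI3 had a log2 fold change of 0.42 ± 0.74 in GL (limma adjusted p = 0.698) and 1.49 ± 0.74 in PSI-PI (0.149), and -0.39 and 0.56 without both high leaves. TAT3 had 1.09 ± 1.15 in GL (0.494), and 0.35 without them. At 400 ppm the GL leaves had 309, 567, 675 and 839 of TAT3 and the PSI-PI leaves 88.4, 269.9, 23.2 and 165, every one below. CORI3 had 5726, 13471, 16058 and 11509.5 there in GL and 4192, 9611, 1750.3 and 3852 in PSI-PI, with overlap. The light difference at 400 ppm was -2.50 ± 1.15 for TAT3 (limma adjusted p = 0.115) and -1.43 ± 0.74 for CORI3 (0.167), and that of TAT3 passed in the fit of the 8 leaves alone (0.0239).

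Both genes had their lowest group means at 100 ppm, and TAT3 split by leaf at 1000 ppm. TAT3 at 100 ppm had 20.9, 61.3, 190.1 and 319 normalized counts in GL and 155, 62.6, 74.5 and 47.4 in PSI-PI. CORI3 had 2313, 2539, 5509 and 7548 and 4189.7, 3825, 4516 and 3244. Against 400 ppm in GL this was -2.56 ± 1.15 for TAT3 (limma adjusted p = 0.0862) and -1.47 ± 0.74 for CORI3 (0.128), with groups overlapping in 1 leaf or more, and both passed only in the fit of the 8 leaves alone (0.0269 and 0.0284). In PSI-PI the same comparison gave only -0.36 ± 1.15 for TAT3 (limma adjusted p = 0.866) and -0.05 ± 0.74 for CORI3 (0.974). At 1000 ppm TAT3 had 161, 63.4, 736 and 503 in GL and 149.7, 4132, 3372 and 179 in PSI-PI, where replicates 2 and 3 were more than 10-fold above replicates 1 and 4. CORI3 at 1000 ppm had 5089.9, 3105, 8367 and 17032 in GL and 9094, 14267, 9662 and 6725 in PSI-PI, and it did not split in this way. Against 400 ppm in PSI-PI TAT3 was 2.98 ± 1.15 (0.176) at 1000 ppm and 2.82 ± 1.15 (0.0780) at 0 ppm, the latter past the threshold without 0 ppm PSI-PI replicate 4 (3.80, 0.0157) and at 1.89 (0.313) without the high replicate 1.

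CYP94C1, which oxidises the active hormone, was the one output called, and it was higher at 0 ppm under PSI-PI in every leaf. The 0 ppm PSI-PI leaves had 421, 131, 164 and 77.1 normalized counts and the 400 ppm PSI-PI leaves 29.5, 26.1, 27.3 and 41.2. The groups were apart, as for 16.3% of all genes, replicate 1 at 0 ppm being the highest by far. The log2 fold change was 2.38 ± 0.58 (SE, n = 4 per group, limma adjusted p = 0.00577), and it passed in all 17 alternatives, with 1.92 to 2.73 and an adjusted p of at most 0.0443. Without replicate 1 it was 1.92 (adjusted p = 0.0356). Of the 4 leaf markers 1 was lower at 0 ppm PSI-PI, the sum over the 4 being 425785 to 756581 against 681417 to 966627 at 400 ppm PSI-PI, and the myrosin cell markers overlapped, at 8944 to 32781 against 8264 to 64249. The 3 guard cell markers MYB60, KAT1 and FAMA summed to 463 to 591 against 597 to 730, with 0 called, and the sums of the phloem markers overlapped. The part of all these markers in the CYP94C1 result was not tested. In GL the 0 ppm leaves had 42.9, 391, 104 and 61.3 and the 400 ppm leaves 47.7, 73.4, 46.7 and 45.5, with overlap and a log2 fold change of 0.95 ± 0.58 (adjusted p = 0.212), which was 0.31 without the high replicate 2. The difference between the lights in this CO2 effect was 1.42 ± 0.82 and did not pass (adjusted p = 0.382).

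At 1000 ppm CYP94C1 had 71.5, 269.5, 257 and 43.2 normalized counts in PSI-PI and 41.5, 37.0, 104 and 114 in GL. All 4 PSI-PI leaves lay above those at 400 ppm, as 12.7% of all genes did in 1 direction or the other, with a log2 fold change of 1.96 ± 0.58 (limma adjusted p = 0.0774) that passed only without replicate 4 (2.45, 0.0282). At 100 ppm it had 40.8, 49.8, 116 and 50.5 in GL and 47.1, 41.3, 42.3 and 62.8 in PSI-PI, and the GL leaves overlapped those at 400 ppm GL. The PSI-PI leaves at 100 ppm lay just above those at 400 ppm PSI-PI, 41.3 or more against 41.2 or less, as 29.7% of all genes had groups apart, with a log2 fold change of 0.63 ± 0.58 (adjusted p = 0.476). At 400 ppm the PSI-PI leaves all lay below the GL leaves, with a log2 fold change of -0.76 ± 0.58 (adjusted p = 0.376), past the adjusted p only in the fit of those 8 leaves alone (0.0270). Replicates 2 and 3 of 1000 ppm PSI-PI, the high leaves of TAT3, were also the high leaves of CYP94C1.

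CYP94B3, which hydroxylates the active hormone, ranged from 0 to 748 normalized counts. The 0 ppm GL leaves had 10.7, 673, 22.0 and 19.8 and the 0 ppm PSI-PI leaves 442, 43.1, 10.3 and 1.03. The 400 ppm GL leaves had 5.61, 29.4, 22.0 and 3.80 and the 400 ppm PSI-PI leaves 1.18, 27.0, 0 and 1.03. A single leaf carried most of the transcript in each 0 ppm group and in 400 ppm PSI-PI. At 100 ppm it was at 1.1, 2.31, 0 and 3.23 in GL and 0, 2.36, 5.72 and 1.18 in PSI-PI, which is a handful of reads. At 1000 ppm it had 4.32, 0, 34.2 and 218 in GL and 3.67, 110.1, 748 and 7.69 in PSI-PI, each with 1 leaf far above the others. The log2 fold changes against 400 ppm on the scale of log2(count + 1) were 1.85 ± 1.63 at 0 ppm GL, -2.39 ± 1.63 at 100 ppm GL and 2.95 ± 1.63 at 0 ppm PSI-PI, and they missed the threshold (limma adjusted p = 0.401, 0.272 and 0.195). Without both high leaves the values at 0 ppm were 0.54 in GL and 1.59 in PSI-PI. At 100 ppm GL all leaves lay below those at 400 ppm, as 40% of all genes did in 1 direction or the other, and that difference passed in the fit of the 8 leaves alone (0.0232). The largest value was 3.68 ± 1.63 at 1000 ppm PSI-PI (0.252), with overlap, and it was 2.31 (0.587) without replicate 3.

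The 10 genes fell into a quiet and a variable set by their spread between leaves of the same group. The residual SD, the spread on the log2 scale once the 8 group means are removed, was 0.13 for COI1, 0.20 for MYC3 and 0.18 for MYC4, below the median of 0.29 over all genes. It was 1.14 for MYC2, 1.70 for VSP1, 1.38 for VSP2, 1.75 for TAT3, 1.12 for CORI3, 2.47 for CYP94B3 and 0.87 for CYP94C1. Of all tested genes 98.1% had a smaller spread than MYC2, and between 93.7% and 99.98% a smaller one than the 6 outputs. The group means left 46.2% of the variance of MYC2, 71.9% of that of VSP2 and 76.7% of that of VSP1 within groups, against 16.6% for MYC4, 27.8% for COI1 and a median of 40.9% over all genes.

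The variable genes were high and low in the same leaves. Replicate 2 of 0 ppm GL was the highest of its group in 7 of the 10 genes, MYC2 and all 6 outputs. Replicate 1 of 0 ppm PSI-PI was the highest in 8, these 7 and MYC4, and replicate 4 of 1000 ppm GL in 9, all but TAT3. Replicate 1 of 0 ppm GL, replicate 1 of 100 ppm GL and replicate 1 of 400 ppm GL were each the lowest of their group in 8 of 10. Over the 32 leaves, as deviations from group means, the Pearson correlation of MYC2 was 0.83 with CORI3, 0.73 with VSP1, 0.72 with VSP2, 0.69 with TAT3, 0.63 with CYP94C1 and 0.60 with CYP94B3. VSP1 and VSP2 had 0.92 and VSP2 and CORI3 had 0.91, and the part of shared reads in the VSP value was not tested. These values describe 32 leaves in which each library contributes 1 point to every gene, so that leaves that stand apart weigh in all of them. MYC3, in the quiet set, still deviated with MYC2 (0.71) and COI1 (0.61).

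**Figure D3:**
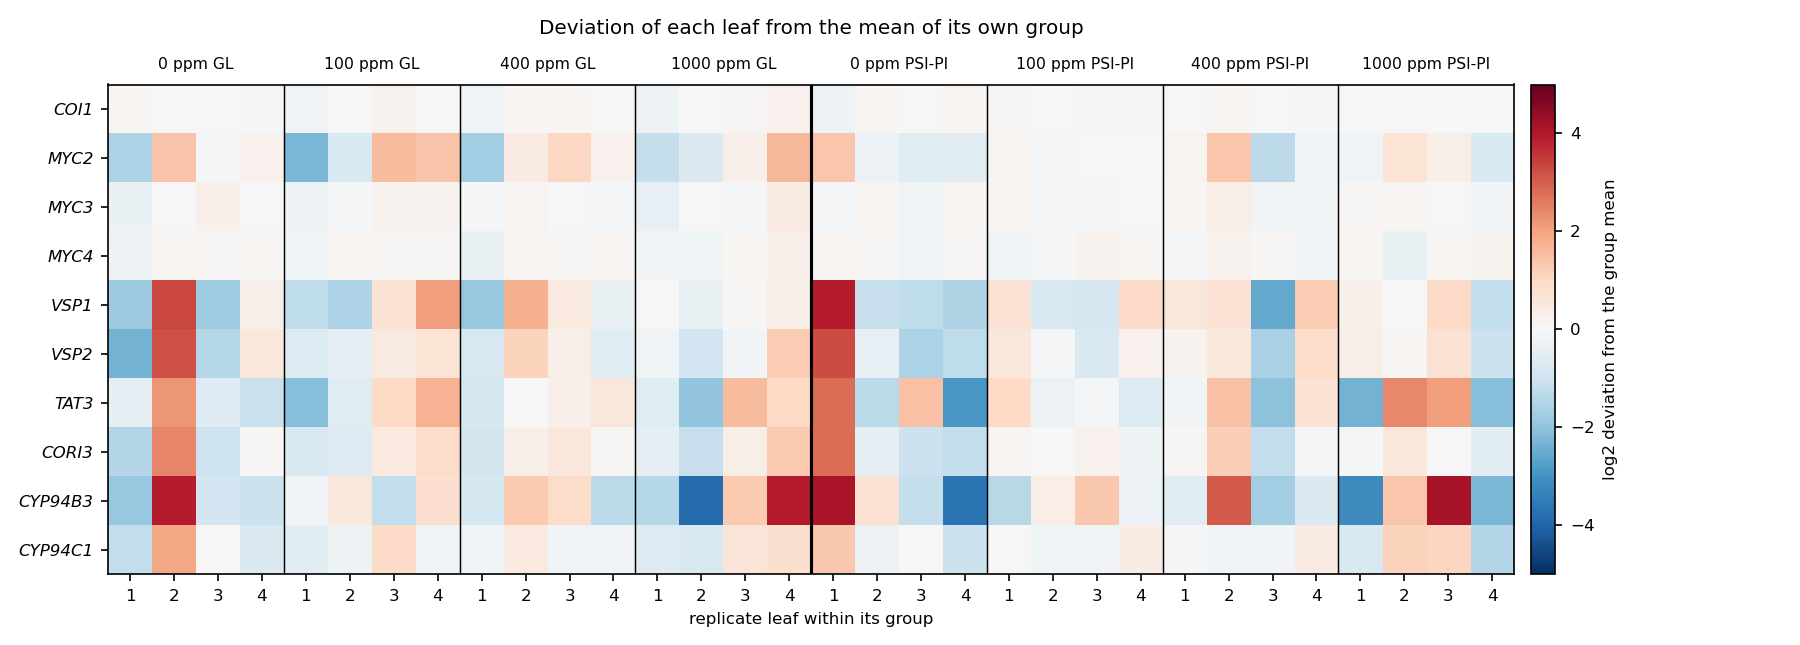
Deviation of each leaf from the mean of its own group on the log2 scale (colour, red above and blue below) for the 10 genes (rows) in the 32 leaves (columns, by group and replicate). MYC2 and the 6 outputs are red together in replicate 2 of 0 ppm GL and replicate 1 of 0 ppm PSI-PI. In replicate 1 of 0 ppm GL they are blue together apart from TAT3, which is pale there. COI1, MYC3 and MYC4 stay pale.

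For each member, the genes with the most similar levels over the 32 leaves were sought among the 15603 genes that averaged 50 normalized counts or more. The 3 most like MYC2 were AT1G06000 (Pearson r = 0.89), the repressor gene JAZ2 (listed as TIFY10B, 0.89) and AT1G52000 (0.88). The most like CORI3 were CSLA10 (0.95), AT3G51450 (0.94) and LOX2, a lipoxygenase of jasmonate synthesis (0.93). TAT3 was most like the repressor gene JAZ1 (0.88), BGL2 (0.87) and TPS04 (0.87), and CYP94C1 most like MPK17 (0.87), JRG21, also known as JOX3, a jasmonate oxidase (0.86), and JAZ10 (0.85). VSP2 was most like AT1G14250 (0.94), VSP1 (0.93) and ARGAH2, an arginase (0.88). The quiet genes had other neighbours, CCD1 (0.88) and BEL10 (0.88) being among the nearest to COI1 and ABF1, an abscisic acid response factor (0.89), BLH1 (0.88) and ARF2 (0.87) nearest to MYC3. The nearest to COI1 was AT4G19450 (0.89). The nearest to MYC4 were AT1G16680 (0.82), AT5G55960 (0.79) and AT5G62130 (0.79). VSP1 was most like VSP2 (0.93), AT1G14250 (0.87) and AT1G62660 (0.86), and CYP94B3 most like AT5G57150 (0.86), PAP1 (0.84) and MYR2 (0.84). All r values share the same 32 libraries and the differences between groups, and they are given as a description.

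Several other genes of the jasmonate pathway were called at 0 ppm. Of 13 JAZ repressor genes 5 were called higher and 0 lower at 0 ppm against 400 ppm in GL, where 4.49% of all genes were called higher. The changes were largest in JAZ10 (2.33 ± 0.86 on the log2 scale, limma adjusted p = 0.0367), JAZ7 (2.00 ± 0.73, 0.0338) and JAZ9 (1.76 ± 0.51, 0.00908), and the median of the 13 was 1.12 beside 0.0034 for all genes. In PSI-PI 4 of 13 were called higher, against 2.31% of all genes, with JAZ10 at 4.11 ± 0.86 (0.00202), JAZ8 at 2.44 ± 0.74 (0.0211) and JAZ1 at 2.42 ± 0.57 (0.00425). The median of the 13 was 0.99 there. At 1000 ppm against 400 ppm the median of the 13 was -0.03 in GL and 0.97 in PSI-PI, with 0 called in either light, so a shift in PSI-PI was not particular to 0 ppm. JAZ genes are themselves targets of MYC factors and restore repression after a signal. Without the 2 high leaves at 0 ppm the counts fell to 1 of 13 in GL, JAZ9, and 3 of 13 in PSI-PI, JAZ1, JAZ6 and JAZ10, and the medians were 0.77 and 0.50. The 2 leaves were those with the highest VSP2, and fewer leaves were then compared. A fall of genes that vary with VSP2 therefore follows in part from the choice of leaves.

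Synthesis and turnover genes were called as well, the turnover genes mainly in PSI-PI. Of 13 synthesis genes 1 was called higher at 0 ppm in GL, AOC1, an allene oxide cyclase (1.83 ± 0.60, limma adjusted p = 0.0206), and 3 in PSI-PI, AOC1 (2.03 ± 0.60, 0.0185), AOC3 and OPR3. Of 7 other turnover genes tested 1 was called higher in GL and 4 in PSI-PI, among them the jasmonate oxidase JOX3 (3.44 ± 1.03, 0.0193) and the sulphotransferase ST2A (3.09 ± 0.84, 0.0115). The medians at 0 ppm were 0.44 and 0.94 for synthesis and 1.41 and 2.71 for turnover in GL and PSI-PI. Without the 2 high leaves neither list had a call in either light, with medians of 0.14 and 0.61 for synthesis and 0.79 and 1.73 for turnover in GL and PSI-PI. At 1000 ppm against 400 ppm the medians were -0.15 and 0.71 for synthesis and 0.02 and 1.96 for turnover in GL and PSI-PI, with 0 called. Of all genes 4.49% were called higher and 5.68% lower in GL, and 2.31% and 2.36% in PSI-PI. The partners of COI1 and the corepressors gave 0 of 10 higher in either light and 1 lower in GL, MYC5, a relative of MYC2 (-3.44 ± 0.76, 0.00108). Of 64 jasmonate-responsive genes that the study had collected, leaving out the 10, 9 were called higher and 0 lower in GL and 13 and 0 in PSI-PI, and 6 and 9 were called higher without the 2 high leaves, with 1 and 0 lower. The medians of the 64 were 0.74 in GL and 1.21 in PSI-PI, and 0.33 and 0.49 without the 2 high leaves. At 1000 ppm against 400 ppm they were -0.45 and 0.76, with 0 called in GL and 1 in PSI-PI. The same control leaves at 400 ppm of each light enter all these comparisons, and the lists overlap in their genes.

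**Figure D4:**
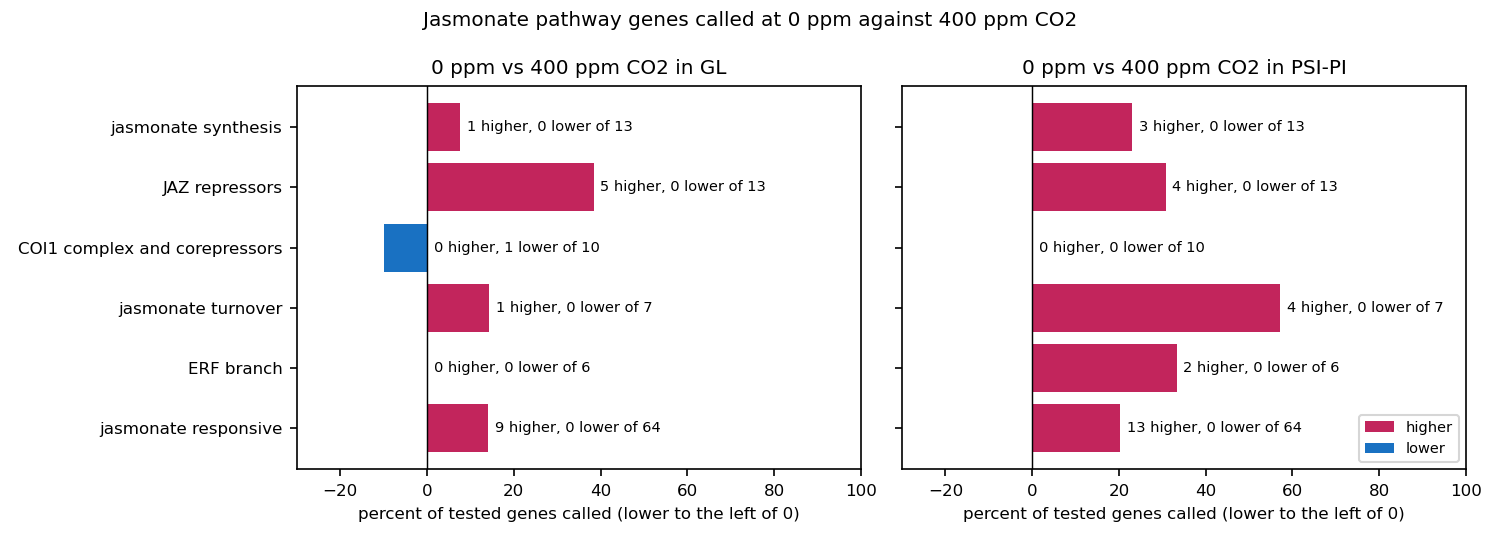
Share of tested genes called higher (right of 0) or lower (left of 0) at 0 ppm against 400 ppm CO2 (x axis, percent) in 6 lists of jasmonate genes (y axis), in GL and PSI-PI. The JAZ repressors have 5 of 13 called higher in GL and 4 of 13 in PSI-PI, the turnover genes 1 and 4 of 7.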

How the data were processed

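RNA from 32 Col-0 leaves, 4 biological replicates in each of 8 groups, was sequenced as bulk libraries. The authors quantified reads with Salmon (version 0.12) on TAIR10 transcripts, summed them to genes with tximport and normalized them with DESeq2. The deposited values are a signal, counts divided by the authors by a size factor for each leaf and apparently by a transcript length factor. They are not raw counts, so no count model was run and limma (3.58.1, R 4.3.3) was used on log2(value + 1). Genes with a summed value of at least 10 were kept. One model of 8 group means, with a variance trend, had 24 residual degrees of freedom. It gave 10 contrasts of 2 groups and 3 interactions, with Benjamini-Hochberg adjustment over all genes tested. Each SE of this model rests on the spread within all 8 groups, the high leaves at 0 ppm included, and not on the compared leaves alone. A gene was called at an adjusted p below 0.05 and a log2 fold change of at least 1, and interactions at the adjusted p alone. Approximate depth was 19332579 to 24411651 reads a leaf.

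The 10 genes, the pathway lists and the tests were chosen with earlier results of these data known. All 10 genes were tested in every comparison and are described by gene or by their count and range, other pathway genes by their list's counts and up to 3 called genes with the largest change, and the 3 most similar genes by Pearson r over 32 leaves. Promoters and coding sequences came from the RefSeq annotation of TAIR10.1, read with Biopython 1.88. Alternatives were other filters, pseudocounts of 0.5 and 5, quantile normalization, no variance trend, no minimum fold, a replicate block, fits of the compared leaves alone and leaving out each leaf. Leaving out both high leaves at 0 ppm was chosen after seeing the data. They were the leaves with the highest VSP2 in the 0 ppm groups, so genes that vary with VSP2 are lowered by the choice itself. The fit was tested on simulated data.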

Additional observations from a re-analysis of the deposited data

Results flagged for a closer look

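In 15 of the 80 groups of 4 leaves, 10 genes in 8 groups, 1 leaf stood apart from the other 3 by Dixon's criterion, and in all 15 it was the highest leaf. Chance marks about 1 in 20 groups of normally distributed values, a rate that cannot be read for these skewed counts. On the log2 scale, tried after seeing the data, 5 of the 80 passed, 4 of them among the 15 (MYC2 and VSP1 in replicate 1 of 0 ppm PSI-PI, CYP94B3 in replicate 2 of 0 ppm GL and CYP94C1 in replicate 2 of 400 ppm GL) and 1 a low leaf (MYC4 in replicate 2 of 1000 ppm PSI-PI). The other 11 of the values below did not stand apart on that scale. Replicate 2 of 0 ppm GL held 5 of the 15, with VSP1 at 7313 normalized counts against 204 to 862 in its mates, VSP2 at 28616 against 588 to 4449, TAT3 at 5561 against 545 to 873, CORI3 at 78884 against 5283 to 15399 and CYP94B3 at 673 against 10.7 to 22.0. Replicate 1 of 0 ppm PSI-PI held 5 more, with MYC2 at 7478 against 1868 to 2337, VSP1 at 13068 against 303 to 382, VSP2 at 35738 against 1248 to 2837, CORI3 at 79163 against 4863 to 8197 and CYP94B3 at 442 against 1.03 to 43.1. This second leaf also stood apart over all genes, and the part of that in these values was not tested.

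CYP94B3 stood apart in 3 further leaves, at 27.0 in replicate 2 of 400 ppm PSI-PI, 218 in replicate 4 of 1000 ppm GL and 748 in replicate 3 of 1000 ppm PSI-PI. CYP94C1 did so in replicate 3 of 100 ppm GL, at 116, and in replicate 2 of 400 ppm GL, at 73.4. The light effect on MYC4 differed between 0 and 400 ppm by -0.76 on the log2 scale (limma interaction, adjusted p = 0.0179).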

How the results depend on the processing

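No filter, a filter of at least 10 in at least 4 leaves, pseudocounts of 0.5 and 5, quantile normalization and no variance trend each left all 130 calls (with the minimum fold, where there is one) of the 10 genes in 13 contrasts where they were. Without a minimum fold 3 genes passed at 0 ppm in GL, 2 at 0 ppm in PSI-PI, and 2 for the light at each of 100, 400 and 1000 ppm. Fits of the compared leaves alone gave 0 genes at 0 ppm GL, 3 at 100 ppm GL (TAT3, CORI3, CYP94B3), 1 for the light at 400 ppm (TAT3) and 2 at 1000 ppm (VSP1, VSP2), and the cause was not tested. Without both high leaves at 0 ppm, chosen after seeing the data, 0 genes were called at 0 ppm GL, where fewer leaves were compared. Leaving out 1 leaf gave 0 to 1 genes at 0 ppm GL, 1 to 2 at 0 ppm PSI-PI, 0 to 1 at 1000 ppm PSI-PI, 0 to 1 for the light at 1000 ppm and 1 to 2 for the interaction at 0 ppm. A replicate block changed 0 of the 130 calls and left 1 gene called at 0 ppm GL. The labels do not say whether a shared replicate number marks leaves handled together. Deviations of leaves with the same number correlated at 0.00887 to 0.261 between 0 and 400 ppm GL, and the lowest value in any contrast was -0.51. These correlations cannot decide whether the numbers pair leaves. Low counts limit CYP94B3, which was at 0 in several leaves.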

Other observations

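The ERF branch of jasmonate signalling, which MYC2 opposes and ethylene shares, had 0 of 6 genes called at 0 ppm against 400 ppm in GL by limma and 2 in PSI-PI, namely ERF1 (3.20 ± 0.36 on the log2 scale, limma adjusted p = 1.14e-06) and ORA59 (1.92 ± 0.51, 0.00946), where 4.49% and 2.31% of all genes were called higher. Without the 2 high leaves 1 of 6 was called in GL, ORA59, and both ERF1 and ORA59 again in PSI-PI. For ERF1 the light effect at 0 ppm differed from that at 400 ppm by 2.65 ± 0.51 (adjusted p = 0.00273). At 400 ppm PSI-PI lowered ERF1 (-1.34 ± 0.36, 0.00642), while the defensin genes PDF1.2A (1.89 ± 0.54, 0.010) and PDF1.2B (3.14 ± 0.91, 0.0112) were higher.

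The repressor gene JAZ9 was higher in PSI-PI than in GL at 100 ppm (1.62 ± 0.51, limma adjusted p = 0.0421) and at 1000 ppm (2.31 ± 0.51, 0.00329). It was the 1 of 13 JAZ genes called at each of these levels. At 400 ppm 1 of 13 was called lower, JAZ1 (-1.63 ± 0.57, 0.0340). Of 13 synthesis genes 2 were called lower there, AOC3 (-1.63 ± 0.42, 0.00492) and OPCL1 (-1.01 ± 0.24, 0.00224). Of all genes 2.06%, 6.19% and 2.62% were called at 100, 400 and 1000 ppm. ST2A, which sulphates a hydroxylated jasmonate, was lower in PSI-PI at 100 ppm (-3.25 ± 0.84, 0.0137) and at 400 ppm (-2.50 ± 0.84, 0.0294), the 1 of 7 turnover genes called at each.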
